A study of Mus musculus with 8 samples.

Results

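Biliary and injury-associated transcripts were followed in primary mouse hepatocytes that overexpressed Trib3. The set holds 9 genes, taken by gene name from the 34745 genes of the expression table: Golm1, Sox9, Spp1, Krt8, Krt18, Cd24a, Epcam, Krt19 and Krt7. The tested cells came from mice given an adeno-associated virus (AAV8) with mouse Trib3 (AAV-Trib3, 4 libraries), and the control cells from mice given a virus with GFP (AAV-GFP, 4 libraries). All mice were labelled wild type. Per the labels' protocol, the mice were male and 6 weeks old at injection, and their hepatocytes were collected after 4 more weeks. The promoter that drove the transgene is not given in the sources used here, and the labels number the libraries without stating whether they represent different mice. P-values here therefore rest on the scatter among these 8 libraries, which can include technical scatter.

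Cholangiocytes, the epithelial cells that line the bile ducts, carry the keratins 7 and 19 together with 8 and 18, the adhesion molecule EpCAM, the surface protein CD24 and the transcription factor SOX9. Hepatocytes normally make keratins 8 and 18 as their only keratin pair, one type II and one type I chain that form filaments as heteropolymers. In injured liver, hepatocytes can switch on SOX9, osteopontin (the product of Spp1) and the Golgi membrane protein GOLM1, also called GP73, while keeping their hepatocyte genes. NOTCH and YAP signalling are known to act upstream of SOX9 in this change.

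Of the 9 genes, 5 had enough counts to enter the test across 11036 genes: Golm1, Sox9, Spp1, Krt8 and Krt18. Cd24a, Epcam, Krt19 and Krt7 were below the low-count filter and are given as counts. In edgeR's quasi-likelihood test of AAV-Trib3 against AAV-GFP, 0 of the 5 passed a Benjamini-Hochberg adjusted p of 0.05, as did 0 of all tested genes (0% called). DESeq2 without its filter on low genes called 7 genes, or 0.0634%, Golm1 being the 1 called of the 5, while with that filter it called 17 genes, or 0.154%, but gave Golm1, Sox9 and Spp1 no adjusted p. At an unadjusted p under 0.05 edgeR's test listed 346 genes, or 3.14%. The set was chosen by values of this same comparison, namely the small unadjusted p of Golm1 and the group levels of Sox9 and Spp1, together with known bile duct and keratin genes. Their differences are therefore descriptions of these libraries, and the counts over the set support nothing further. Total counts per library ran from 11350442 to 15361128. Trib3 itself, the overexpressed gene, stood at 44.5 ± 23.9 CPM (a common scale of library size, adjusted with TMM factors) in AAV-Trib3 libraries and 2.40 ± 0.94 CPM in AAV-GFP libraries (SD, n = 4 each). In edgeR's test Trib3 had a log2 difference of 4.17 ± 0.47 (SE) and an adjusted p of 0.0675, so even this gene was not called. DESeq2 called Trib3 with and without its filter on low genes. A result of 0 called in edgeR's test therefore does not show that genes were unchanged. AAV-GFP replicate 2 stood apart, with 32.0% of its counts in mitochondrial transcripts against 14.9% to 18.5% in the other libraries. Its TMM factor was 0.699, against 0.973 to 1.15 in the others, which raises its CPM relative to scaling by library size alone.

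Per length and library, in the deposited FPKM, the genes fell into a high pair, a middle group and a group near the detection limit. Krt18 averaged 76.5 FPKM over the 8 libraries, a level above 96.0% of the tested genes, and Krt8 averaged 66.7 FPKM. These 2 did not differ consistently, since Krt18 was the higher in 5 of 8 libraries. Spp1, which encodes a secreted phosphoprotein, averaged 2.08 FPKM, above 45.4% of the tested genes, and lay below Krt8 and above Golm1 in all 8. Golm1 averaged 0.680 FPKM and Sox9 0.584 FPKM, with Golm1 the higher in 6 of 8 libraries. Cd24a followed at 0.208, Epcam at 0.105, Krt19 at 0.0493 and Krt7 at 0.00724 FPKM. Sox9 was above Cd24a in 6 of 8 libraries, so the middle and the lowest group were not sharply divided there. Between neighbours in the order of these 4 genes, the order held in at most 6 of 8 libraries, so neighbours could not be separated beyond their spread. Cd24a was above Krt19 in each library, and its lowest value (0.0805 FPKM) was above the highest of Krt7 (0.0227 FPKM).

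Golm1 had the largest difference between the groups among the 5 tested genes. It encodes a type II membrane protein of the cis-Golgi that furin can cleave and release. Its counts were 62, 33, 65 and 56 in AAV-Trib3 replicates 1 to 4, against 16, 4, 22 and 20 in AAV-GFP replicates 1 to 4. Scaled to library size, the AAV-Trib3 libraries had 3.78, 2.42, 4.96 and 3.78 CPM and the AAV-GFP libraries 1.34, 0.402, 1.59 and 1.22 CPM. Every AAV-Trib3 library lay above every AAV-GFP library, a separation seen in this direction for 1.21% and in the opposite direction for 1.08% of all tested genes. The lowest AAV-Trib3 library, replicate 2, had an exact Poisson 95% interval of 1.67 to 3.40 CPM, which overlapped that of the highest AAV-GFP library, replicate 3, at 0.996 to 2.41 CPM. Such intervals cover counting error only. The means were 3.73 ± 1.04 CPM in AAV-Trib3 libraries and 1.14 ± 0.51 CPM in AAV-GFP libraries (SD, n = 4 each), a 3.28-fold difference of means. The log2 difference was 1.68 ± 0.39 (SE), and it was 1.43 without AAV-GFP replicate 2, the library with 4 counts. In bulk RNA, fewer cells that express a gene and less RNA per cell cannot be told apart, and this holds for all values below.

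In mm10 the protein-coding Golm1 gene (ENSMUSG00000021556) spans 59634996 to 59675784 of chromosome 13 and is transcribed from the minus strand. Its promoter window is shown because Golm1 was the one tested gene of the set whose groups did not overlap. The window, from 250 bases before to 50 after the RefSeq start site, is chr13:59675735-59676034 in GRCm38.p6, the NCBI name of the mm10 build, read on the minus strand. Capitals mark matches to 7 motifs, each searched on both strands. The core promoter motifs were TATAAA for the TATA box, GGGCGG for the box bound by SP1 (GC box) and CCAAT for the box bound by NF-Y. The motifs of regulators were TGANTCA for AP-1, GGAATG for TEAD (the partner of YAP), TGGGAA for RBPJ (the partner of NOTCH) and TGATGNAA for ATF4 with CHOP.
Golm1: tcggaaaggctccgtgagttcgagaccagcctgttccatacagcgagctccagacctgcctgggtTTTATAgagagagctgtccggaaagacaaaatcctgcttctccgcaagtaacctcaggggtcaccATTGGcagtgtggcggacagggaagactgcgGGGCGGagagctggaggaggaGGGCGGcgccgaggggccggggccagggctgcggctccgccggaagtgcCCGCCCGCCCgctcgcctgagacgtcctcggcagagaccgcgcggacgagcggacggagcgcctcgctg
The Golm1 window held 4 matches to the GC box, of which 2 at positions -19 and -15 overlapped, and 1 match each to the CCAAT box, at -120, and the TATA box, at -185. GC boxes occurred in 35.6%, CCAAT boxes in 37.4% and TATA boxes in 13.6% of 32817 promoter windows of the same length. The letters of the AP-1, TEAD, RBPJ and ATF4-CHOP motifs were not in this window.

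Sox9, the transcription factor that marks bile duct cells and reprogrammed hepatocytes, was at a low level in all libraries. It had 61, 32, 39 and 60 counts in AAV-Trib3 replicates 1 to 4, against 12, 9, 39 and 16 in AAV-GFP replicates 1 to 4. In normalised terms this was 3.72, 2.35, 2.97 and 4.05 CPM in AAV-Trib3 libraries and 1.01, 0.904, 2.82 and 0.976 CPM with AAV-GFP. AAV-GFP replicate 3 stood within the AAV-Trib3 range, and the other 3 AAV-GFP libraries lay near 1 CPM, below all AAV-Trib3 libraries. The means were 3.27 ± 0.76 CPM in AAV-Trib3 libraries and 1.43 ± 0.93 CPM in AAV-GFP libraries (SD, n = 4 each). The log2 difference was 1.18 ± 0.41 (SE), and without AAV-GFP replicate 3 it was 1.76. The gene (ENSMUSG00000000567) lies on the plus strand of chromosome 11, from 112782224 to 112787760.

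Spp1, the gene of the matrix and cytokine-like protein osteopontin, had the widest scatter on the log2 scale among the tested genes of the set. Its level was 10.7, 4.76, 23.8 and 17.4 CPM in AAV-Trib3 replicates 1 to 4, from 176, 65, 312 and 257 counts. In AAV-GFP replicates 1 to 4 it was 8.47, 9.04, 4.91 and 9.76 CPM, from 101, 90, 68 and 160 counts. AAV-Trib3 replicates 1, 3 and 4 lay above all AAV-GFP libraries, and AAV-Trib3 replicate 2 was the lowest of all 8. The means were 14.2 ± 8.2 CPM in AAV-Trib3 libraries and 8.04 ± 2.16 CPM in AAV-GFP libraries (SD, n = 4 each), and the log2 difference was 0.81 ± 0.43 (SE). That difference was 0.45 without AAV-Trib3 replicate 3 and 1.10 without AAV-Trib3 replicate 2. Spp1 (ENSMUSG00000029304) lies on the plus strand of chromosome 5, from 104435118 to 104441050.

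**Figure D1:**
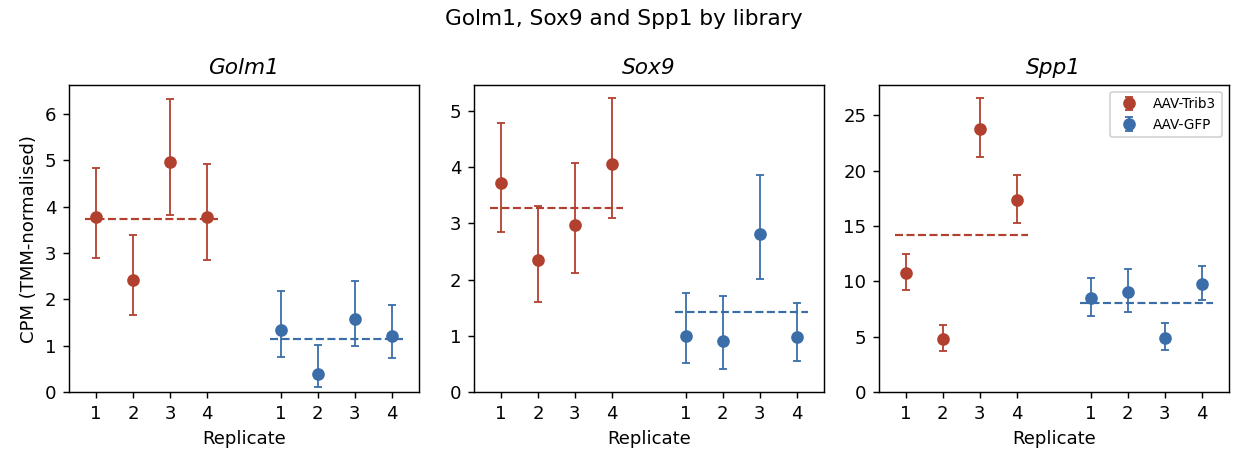
Normalised level (CPM, vertical axis) of Golm1, Sox9 and Spp1 in each AAV-Trib3 library (red) and AAV-GFP library (blue), with replicate numbers on the horizontal axis, exact Poisson 95% intervals as bars and group means as dashed lines. Golm1 points do not overlap between the groups, Sox9 of AAV-GFP replicate 3 (2.82 CPM) lies within the AAV-Trib3 range, and Spp1 is highest in AAV-Trib3 replicate 3 (23.8 CPM) and lowest in AAV-Trib3 replicate 2 (4.76 CPM).

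Macrophages and Kupffer cells can also make osteopontin, so their markers are given beside Spp1. All 11 of these markers had counts, and 9 had counts in every library. Their summed level was 97.5, 10.4, 22.7 and 63.3 CPM in AAV-Trib3 replicates 1 to 4 and 12.0, 76.9, 8.38 and 72.2 CPM in AAV-GFP replicates 1 to 4. AAV-Trib3 replicate 3, which had the most Spp1, had a marker sum below that of 4 other libraries. Over the 8 libraries, log2 Spp1 and the log2 marker sum had a Pearson r of 0.50 (exact permutation p = 0.209, adjusted p = 0.313 over 3 pairs) and a Spearman rho of 0.57 (exact p = 0.151, adjusted 0.216). Without AAV-Trib3 replicates 2 and 3, the 2 libraries farthest from the median of Spp1, r was 0.71 (exact permutation p = 0.0875, n = 6). It was 0.43 within the AAV-Trib3 libraries and 0.78 within the AAV-GFP libraries, each over 4 points and given with no test. The share of Spp1 counts that came from macrophages was not tested. Sox9 and Spp1 had a Pearson r of 0.26 (exact permutation p = 0.520, adjusted p = 0.520) and a Spearman rho of 0.50 (exact p = 0.216, adjusted 0.216), and r was 0.35 (exact permutation p = 0.544) in the 6 libraries left without AAV-GFP replicates 2 and 4. Within the groups the sign differed, with r of 0.59 over the 4 AAV-Trib3 libraries and -0.98 over the 4 AAV-GFP libraries, so the pooled r describes neither group. The r of the AAV-GFP libraries rests mainly on replicate 3. It had Sox9 at 2.82 CPM against 0.904 to 1.01 CPM in the other AAV-GFP libraries, and Spp1 at 4.91 against 8.47 to 9.76 CPM. With 4 points each, these within-group r are given with no test.

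The hepatocyte keratins were at similar levels in both groups. Krt8, the type II chain, had 116, 93.2, 137 and 126 CPM in AAV-Trib3 replicates 1 to 4, against 133, 125, 83.8 and 141 CPM in AAV-GFP replicates 1 to 4. The 2 groups overlapped over nearly their whole range, with the highest value and the lowest both in AAV-GFP. The means were 118 ± 19 CPM in AAV-Trib3 libraries and 121 ± 26 CPM in AAV-GFP libraries (SD, n = 4 each), and the log2 difference was -0.03 ± 0.19 (SE). Its sign changed with the scaling, to 0.02 when library size alone was used.

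Krt18, the type I partner, had 108, 72.0, 107 and 97.2 CPM in AAV-Trib3 replicates 1 to 4 and 103, 122, 92.1 and 148 CPM in AAV-GFP replicates 1 to 4. AAV-GFP replicates 2 and 4 were the highest libraries and AAV-Trib3 replicate 2 the lowest, while the rest lay between 92.1 and 108 CPM. The rank of AAV-GFP replicate 2 depended on the TMM scaling. In FPKM, without that scaling, its Krt18 (60.9) was above only that of AAV-Trib3 replicate 2 (51.2). Its Krt8 (48.5 FPKM) was the lowest of all libraries. The means were 96.0 ± 16.7 CPM in AAV-Trib3 libraries and 116 ± 24 CPM in AAV-GFP libraries (SD, n = 4 each), a log2 difference of -0.28 ± 0.19 (SE), which was -0.15 without AAV-GFP replicate 4. Counting error was small beside this scatter, since Krt8 and Krt18 rested on at least 1160 and 982 counts per library. Keratin genes have processed pseudogenes, so the counts of both are uncertain where reads could match copies.

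The ratio of Krt8 to Krt18 within a library is free of library scaling. In FPKM it was 0.838, 1.00, 0.992 and 1.01 in AAV-Trib3 replicates 1 to 4 and 1.00, 0.797, 0.705 and 0.738 in AAV-GFP replicates 1 to 4. Thus 3 of the 4 AAV-Trib3 libraries and AAV-GFP replicate 1 had nearly as much Krt8 as Krt18, while the other 4 libraries had less Krt8. The mean ratio was 0.960 ± 0.082 in AAV-Trib3 libraries and 0.810 ± 0.133 in AAV-GFP libraries (SD, n = 4 each). Over the 8 libraries Krt8 and Krt18 had a Pearson r of 0.72 on the log2 CPM scale (exact permutation p = 0.0430, adjusted p = 0.129 over 3 pairs) and a Spearman rho of 0.62 (exact p = 0.115, adjusted 0.216). Without AAV-GFP replicate 3 and AAV-Trib3 replicate 2, r was 0.45 (exact permutation p = 0.396, n = 6), so the relation rests in part on those 2 libraries. Within the groups r was 0.88 in the AAV-Trib3 libraries and 0.76 in the AAV-GFP libraries, over 4 points each and with no test.

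**Figure D2:**
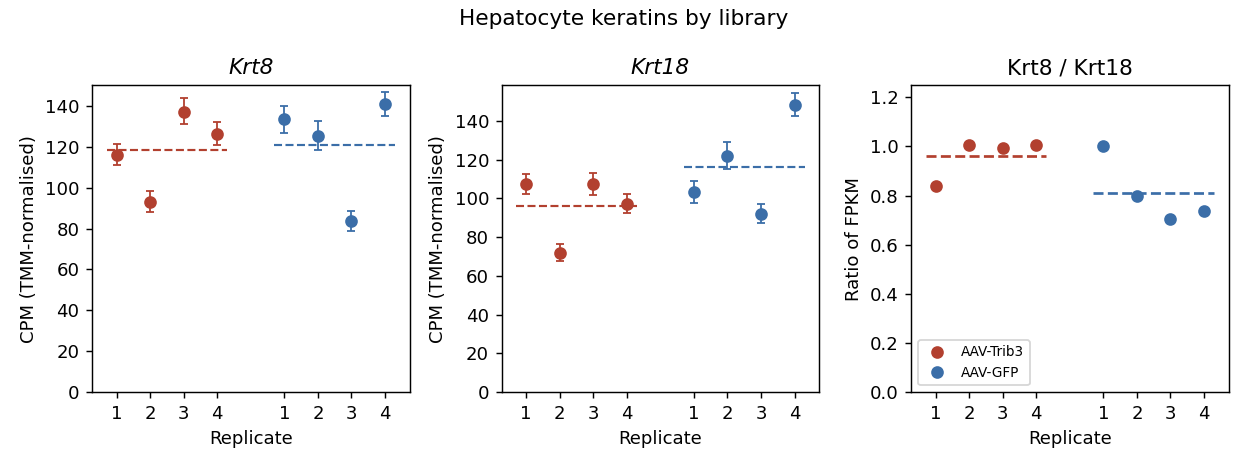
Normalised level (CPM) of Krt8 and Krt18 with exact Poisson 95% intervals, and the ratio of their FPKM, in each AAV-Trib3 library (red) and AAV-GFP library (blue), by replicate number, with group means dashed. The groups overlap in each panel, and the ratio is near 1 in AAV-Trib3 replicates 2, 3 and 4 and in AAV-GFP replicate 1.

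Krt8 (ENSMUSG00000049382, minus strand, from 101996711 to 102004342) and Krt18 (ENSMUSG00000023043, plus strand, from 102028216 to 102032026) lie head to head on chromosome 15 in mm10, with 23874 bases between their 5′ ends. Their promoter windows are shown because the 2 genes supply the partners of 1 filament. The windows are chr15:102004293-102004592 on the minus strand for Krt8 and chr15:102027966-102028265 on the plus strand for Krt18, both from RefSeq on GRCm38.p6, with capitals marking the same 7 motifs.
Krt8: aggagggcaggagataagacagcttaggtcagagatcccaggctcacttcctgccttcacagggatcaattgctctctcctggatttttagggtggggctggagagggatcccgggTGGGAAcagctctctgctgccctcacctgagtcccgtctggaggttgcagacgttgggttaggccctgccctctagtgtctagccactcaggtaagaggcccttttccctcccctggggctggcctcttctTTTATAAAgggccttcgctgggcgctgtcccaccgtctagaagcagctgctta
Krt18: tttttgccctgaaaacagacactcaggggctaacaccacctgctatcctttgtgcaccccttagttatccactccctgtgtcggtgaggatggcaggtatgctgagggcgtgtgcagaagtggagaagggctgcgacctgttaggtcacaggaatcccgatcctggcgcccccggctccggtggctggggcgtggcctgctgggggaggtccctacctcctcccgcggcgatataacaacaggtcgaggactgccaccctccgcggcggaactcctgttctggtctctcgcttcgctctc
The Krt8 window held the letters of a TATA box on each strand, which overlap at positions -3 and -1 from the RefSeq start site. It also held 1 match to the RBPJ motif, the site of the NOTCH effector, at -134, a motif found in 25.6% of all windows. The Krt18 window held none of the 7 motifs. A match or its absence in this window says nothing about binding.

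Almost all keratin counts came from this pair. Of 47 keratin genes in the table, 10 had a count in any library, and Krt8 and Krt18 took 24898 of 25085 keratin counts, or 99.3%. Krt7 and Krt19, which mark the bile duct epithelium, were near the detection limit. Krt19 had 1, 0, 7 and 1 counts in AAV-Trib3 replicates 1 to 4, against 3, 0, 0 and 0 in AAV-GFP replicates 1 to 4. Krt7 had 3, 0, 1 and 0 counts with AAV-Trib3 and 1, 0, 0 and 2 with AAV-GFP. The detection limit was set at 3 counts, which was between 0.183 and 0.301 CPM depending on the library. The exact Poisson 95% interval of a count of 0 for these genes reached higher, to between 0.225 and 0.371 CPM. Krt19 exceeded the limit of 3 counts only in AAV-Trib3 replicate 3, at 0.534 CPM with an exact Poisson 95% interval of 0.215 to 1.10 CPM. A difference between the groups was therefore not detectable at this depth.

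Epcam, the epithelial adhesion molecule of bile duct and progenitor cells, had 4, 0, 10 and 6 counts in AAV-Trib3 replicates 1 to 4, against 0, 2, 1 and 1 in AAV-GFP replicates 1 to 4. The sums were 20 and 4 counts, and 10 of the 20 AAV-Trib3 counts came from replicate 3. AAV-Trib3 replicate 2 had no Epcam count, so the groups overlapped. In a fit without the low-count filter its log2 difference was 2.03 ± 1.14 (SE). AAV-Trib3 replicate 3 had the highest counts of Epcam and Krt19 and the highest Spp1, Golm1 and Trib3 (67.2 CPM) of all libraries. AAV-Trib3 replicate 2 had nearly as much Trib3 (62.6 CPM), but no Epcam or Krt19 count and the lowest Spp1 of all libraries. Its Golm1 and Sox9 were the lowest of the AAV-Trib3 libraries. Trib3 stood at 27.9 and 20.2 CPM in AAV-Trib3 replicates 1 and 4. A relation of these genes to the level of Trib3 was not tested.

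Cd24a, a mucin-like surface protein found on bile duct cells and on leukocytes, had 9, 2, 7 and 3 counts in AAV-Trib3 replicates 1 to 4 and 6, 4, 5 and 5 counts in AAV-GFP replicates 1 to 4. Its sums, 21 and 20 counts, were nearly equal. In the unfiltered fit the log2 differences were -0.11 ± 0.72 for Cd24a, 1.30 ± 1.40 for Krt19 and 0.25 ± 1.31 for Krt7 (SE), each smaller than its error.

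**Figure D3:**
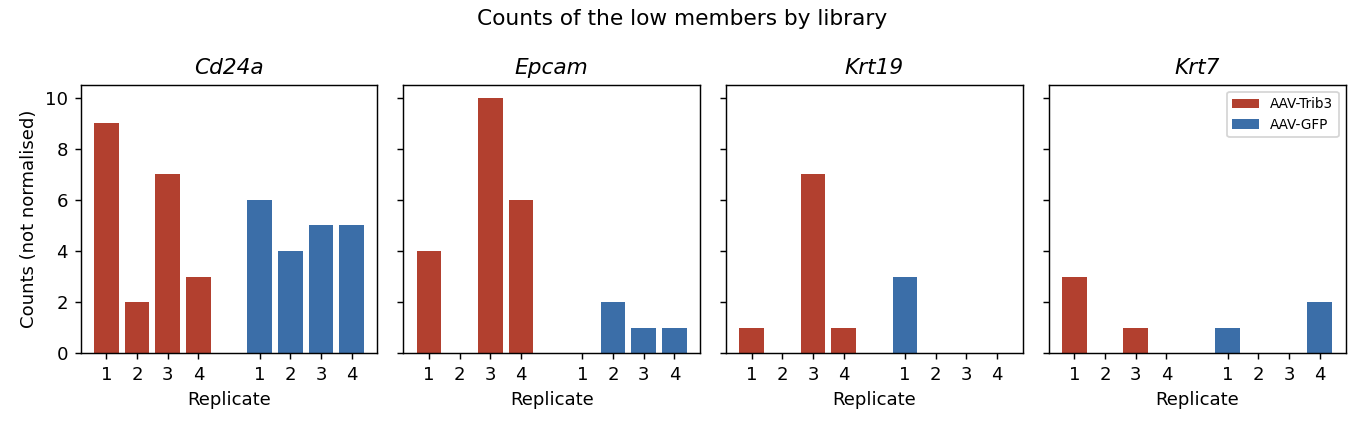
Deposited counts, without normalisation, of Cd24a, Epcam, Krt19 and Krt7 in each AAV-Trib3 library (red) and AAV-GFP library (blue), by replicate number. No library has more than 10 counts of any of the 4 genes, and AAV-Trib3 replicate 3 has the most Epcam (10) and Krt19 (7).

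Other genes of cholangiocytes were taken from a list of 20. With the 6 cholangiocyte genes of the set, 25 of 26 had a count in some library, 7 were tested, and 9 had fewer than 10 counts in all libraries together. Cftr, the chloride channel of the bile duct, had 0 counts in all 8 libraries. Of the 20 listed genes 5 were tested and 0 called in either direction, and their median log2 difference was 0.06, beside -0.01 for all tested genes. Pkhd1, the fibrocystin gene, had a log2 difference of -0.29 ± 0.37 (SE), the bile acid transporter gene Slc10a2 one of 0.16 ± 0.36 and the annexin gene Anxa4 one of -0.09 ± 0.17. The summed level of the list was 71.0 to 86.5 CPM in AAV-Trib3 libraries and 57.1 to 92.3 CPM with AAV-GFP, so the groups overlapped. The 5 tested genes are not restricted to cholangiocytes, and Aqp1, the water channel, is also made by endothelium.

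Pathways upstream of Sox9 were taken from lists of NOTCH and of Hippo-YAP genes. Of the 15 NOTCH genes 7 were tested and 0 called in either direction (median log2 difference -0.10). The receptor Notch1 had 13.1 ± 3.2 CPM in AAV-Trib3 libraries and 8.49 ± 1.52 CPM in AAV-GFP libraries (SD, n = 4 each), a log2 difference of 0.62 ± 0.21 (SE), with overlapping groups. Notch2, the main receptor of the liver epithelium, had a log2 difference of 0.12 ± 0.14, the ligand gene Jag1 one of -0.33 ± 0.27 and the target gene Hes1 one of -0.37 ± 0.26. Of the 18 Hippo-YAP genes 15 were tested and 0 called in either direction (median 0.04). Cyr61, a matricellular target of YAP, had 8.75 ± 1.09 CPM in AAV-Trib3 libraries and 18.4 ± 8.7 CPM in AAV-GFP libraries (SD, n = 4 each), a log2 difference of -1.08 ± 0.31, again with overlapping groups. Tead3, which encodes a DNA-binding partner of YAP, and the kinase genes Lats2 and Stk4 had log2 differences of -0.33 ± 0.22, 0.22 ± 0.26 and 0.19 ± 0.16.

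The partners of the products of the set gave no call either. Of 17 genes of intermediate filaments and their anchors 16 were in the table, 11 were tested and 0 were called (median log2 difference -0.03). Plec, the gene of the linker plectin, had 53.6 ± 5.2 CPM in AAV-Trib3 libraries and 65.4 ± 7.8 CPM in AAV-GFP libraries (SD, n = 4 each), a log2 difference of -0.29 ± 0.13 (SE). The junction genes Jup and Pkp2 had log2 differences of 0.30 ± 0.15 and 0.17 ± 0.14, and Vim, the filament gene of mesenchymal cells, one of -0.70 ± 0.92. Of 14 osteopontin receptor and protease genes 7 were tested and 0 called (median 0.05). Among these, Cd44 had a log2 difference of 0.40 ± 0.90 and the integrin genes Itgav, Itga9 and Itga5 had 0.23 ± 0.46, 0.20 ± 0.64 and 0.05 ± 0.40. All 16 Golgi membrane and processing genes were tested and 0 were called (median -0.07). The sialyltransferase gene St6gal1 had 25.0 ± 3.8 CPM in AAV-Trib3 libraries and 35.0 ± 11.5 CPM in AAV-GFP libraries (SD, n = 4 each), and the mannosidase genes Man2a1 and Man1a and the stacking protein gene Gorasp1 had log2 differences of 0.26 ± 0.16, 0.17 ± 0.14 and -0.20 ± 0.13.

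Of 15 genes of fetal or injured hepatocytes 6 were tested and 0 called (median log2 difference -0.29). Lcn2, the acute phase gene of lipocalin 2, had 270.3, 4.62, 3.43 and 159 CPM in AAV-Trib3 replicates 1 to 4, against 6.87, 21.8, 42.0 and 4.39 CPM in AAV-GFP replicates 1 to 4. It was high in AAV-Trib3 replicates 1 and 4, the 2 libraries with the most Sox9, and low in AAV-Trib3 replicates 2 and 3. Replicates 1 and 4 also had the least Trib3 (27.9 and 20.2 CPM) and the highest macrophage marker sums (97.5 and 63.3 CPM) among the AAV-Trib3 libraries. Among the AAV-GFP libraries, Lcn2 was highest in replicate 3, which had the lowest marker sum (8.38 CPM). These relations were not tested. The log2 difference of Lcn2 was 2.55 ± 1.28 (SE), a value above that of Golm1 with an SE also above that of Golm1. The FN14 receptor gene Tnfrsf12a had 5.41 ± 1.27 CPM in AAV-Trib3 libraries and 8.12 ± 1.39 CPM in AAV-GFP libraries (SD, n = 4 each), a log2 difference of -0.58 ± 0.22 (SE). The stress cytokine gene Gdf15 and the annexin gene Anxa2 had log2 differences of -0.47 ± 0.51 and -0.96 ± 0.79. Afp, the fetal albumin relative, had 70 counts in all libraries together, and Gpc3 had 0. Over the 7 lists, 67 genes were tested and 0 were called in edgeR's test. In that test 3 had an unadjusted p under 0.05 (Notch1, Cyr61 and Tnfrsf12a), beside 3.14% of all tested genes. The groups separated fully in none of the 67, beside 1.21% of all tested genes with AAV-Trib3 higher and 1.08% with it lower. With so few genes, these counts are no result about the lists.

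**Figure D4:**
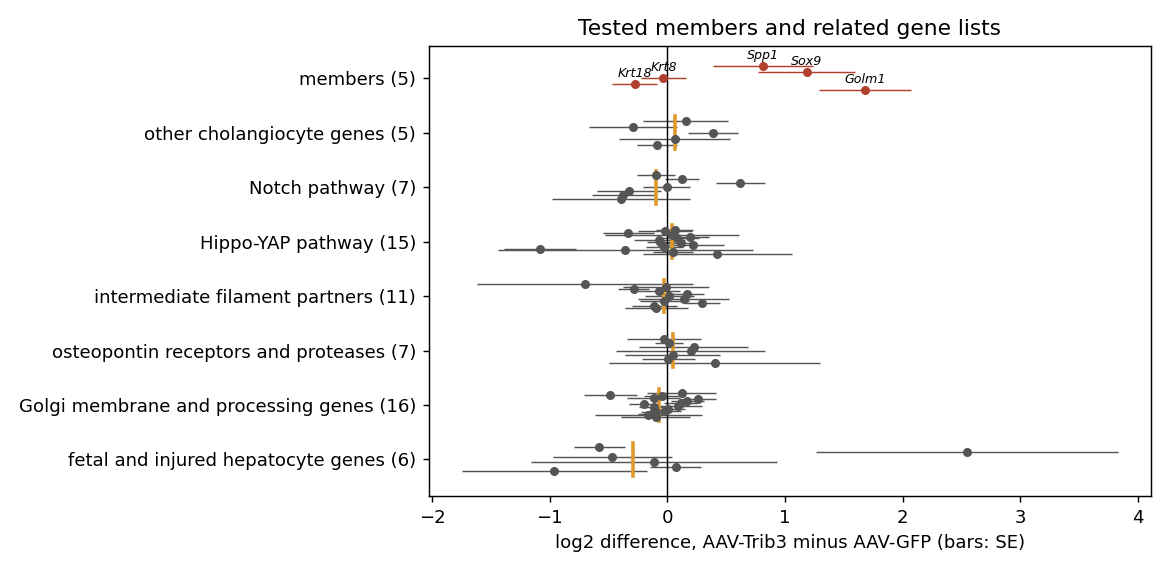
Log2 differences of AAV-Trib3 minus AAV-GFP (horizontal axis, bars are SE) for the 5 tested genes of the set (red, named) and the tested genes of 7 related lists (grey, list medians in orange, number tested in brackets). Golm1, at 1.68, Sox9, at 1.18, and Spp1, at 0.81, lie to the right of the list medians, which lie between -0.29 and 0.06, and a single list gene, Lcn2 at 2.55, lies farther right than Golm1.

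The labelled cell type was checked against marker lists. All 8 hepatocyte markers had counts in every library, with a summed level of 67616 to 113319 CPM in AAV-Trib3 libraries and 70907 to 139667 CPM with AAV-GFP. The sum of 8 endothelial markers was 31.2 to 51.7 CPM in AAV-Trib3 libraries and 15.5 to 71.8 CPM with AAV-GFP, and that of 8 stellate cell markers 12.0 to 15.9 CPM and 3.54 to 26.6 CPM. Markers of mesothelium, which also carries keratins, summed to at most 0.152 CPM in AAV-Trib3 libraries and 0.904 CPM with AAV-GFP, and Muc16 was at 0. Leukocyte markers summed to 0.880 to 4.69 CPM in AAV-Trib3 libraries and 0.578 to 3.84 CPM with AAV-GFP. Erythroid markers summed to 83.1 to 131.6 CPM in AAV-Trib3 libraries and 66.9 to 112.6 CPM with AAV-GFP. The groups overlapped in the sum of every list. The part of these cells in the counts of the set was not tested.

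**Figure D5:**
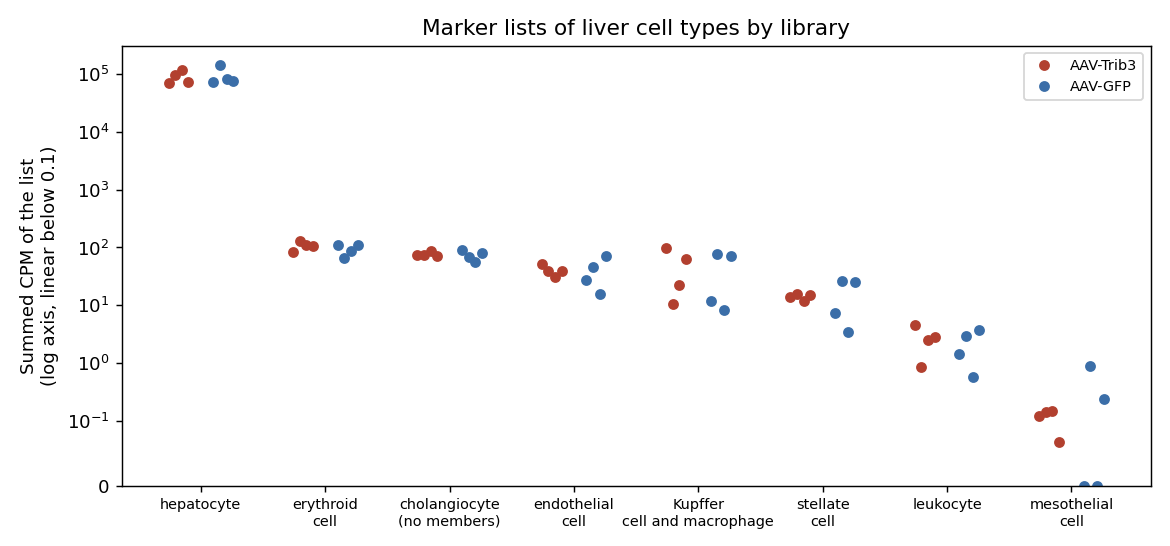
Summed CPM of marker lists (vertical axis, logarithmic above 0.1) in each AAV-Trib3 library (red) and AAV-GFP library (blue). Hepatocyte markers reach 139667 CPM, cholangiocyte markers other than the 9 genes lie between 57.1 and 92.3 CPM, mesothelial markers lie at or below 0.904 CPM, and the groups overlap in each list.

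The genes whose log2 CPM ran most closely with the genes of the set over the 8 libraries were listed from 9936 tested genes whose mean log2 CPM reached 1. For Golm1 these were Mrps33, Pdcd2 and Myl6, with Pearson r of 0.99, 0.95 and 0.95. Sox9 was followed most closely by Umad1, Phc3 and Mnd1, with r of 0.95, 0.95 and 0.95. Spp1 was closest to Aldh1b1, Baat and Dck, with r of 0.94, 0.93 and 0.91, and among the closest to Krt18 were Brd9 and Srgap2, each with r of 0.96. These r were picked as the highest among all these candidates over only 8 points that share library depth and scaling, so they are descriptions with no test.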

How the data were processed

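RNA was sequenced from AAV-Trib3 (4) and AAV-GFP (4) mouse hepatocyte libraries, grouped by sample title. Per the labels' protocols, mRNA was enriched on oligo(dT) beads, with no strand-keeping step or molecular identifiers named. Per the file headers, the deposited table holds gene counts and FPKM per library. The submitters' processing notes name Trimmomatic and mm10; aligner, counter and annotation release: not given in the sources used here. The counts deposited by the authors are whole numbers and were used for all tests. The FPKM deposited by the authors follow the counts and library totals and were used only to compare levels between genes, without TMM scaling.

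Genes were filtered with filterByExpr and tested with edgeR's quasi-likelihood F test (TMM, robust, no covariate, Benjamini-Hochberg over 11036 genes, threshold 0.05). SEs were derived from the F statistic, and log2 CPM used a prior count of 2. Software was R 4.3.3, edgeR 4.0.16, limma 3.58.1, DESeq2 1.42.0, Python 3.11.15 and matplotlib 3.10.9. The fit was run on simulated data with planted changes, where only the median recovered differences in each direction had to pass a limit. That run is no measure of power in these libraries. The members, gene lists and rules were chosen with earlier results of these data known. Named were all 9 members and Trib3, up to 4 tested genes of smallest p in each related list, and the 3 genes most alike to Sox9, Spp1, Golm1 and Krt18. A few of these genes are not reported here. Cftr, Aqp1, Afp, Gpc3 and Muc16 were added to these once the values were known. Alternatives were other scalings, DESeq2, limma-voom, other filters, a replicate block and each library left out. Libraries of a group differed beyond sampling noise (chi-square per degree of freedom of 17.0 or more), so none was counted as a second deposit of another. That check says nothing of library quality, and AAV-GFP replicate 2 stayed in as labelled. RefSeq promoter windows were found for 6 of the 9 genes.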

Additional observations from a re-analysis of the deposited data

Results flagged for a closer look

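In a group of 4, a value was listed when its gap to the next exceeded Dixon's 95% critical share of the range. Of 36 such groups 6 were listed, and chance lists about 1 in 20. Groups of counts near 0 have tied values, so this rate does not hold for them. Sox9 was highest in AAV-GFP replicate 3, at 2.82 CPM against 1.01 CPM in the next AAV-GFP library. Krt19 was highest in AAV-Trib3 replicate 3, at 0.534 CPM from 7 counts against 0.0675 CPM in the next, and in AAV-GFP replicate 1, at 0.251 CPM from 3 counts against 0 in the others. The ratio of Krt8 to Krt18 was lowest in AAV-Trib3 replicate 1, at 0.838 against 0.992 in the next. The cholangiocyte list without the 9 genes was highest in AAV-Trib3 replicate 3, at 86.5 CPM against 73.4 CPM. Hepatocyte markers were highest in AAV-GFP replicate 2, at 139667 CPM against 79838 CPM, the library with 32.0% mitochondrial counts. Its TMM factor of 0.699 raises this CPM. In summed counts, 1390763, it was below AAV-Trib3 replicate 3, at 1486371.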

How the results depend on the processing

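The log2 differences of Golm1, Sox9, Spp1 and Krt18 kept their sign under all 8 other settings of scaling, test, filter and block and in all 8 fits that left out 1 library. With 1 library left out they ran from 1.43 to 1.88 for Golm1, from 1.02 to 1.76 for Sox9, from 0.45 to 1.10 for Spp1, from -0.37 to -0.15 for Krt18 and from -0.17 to 0.06 for Krt8. DESeq2's Wald test called 17 genes and 0 of the 9, but gave no adjusted p for 5136 genes, Golm1, Sox9 and Spp1 among them. All but 13 of these genes had an adjusted p once DESeq2's filter on low genes was off. With its filter on low genes switched off, a choice made after seeing the data, it called 7 genes, of which 1 was of the set: Golm1, at an adjusted p of 0.0444. In edgeR, Golm1 had an adjusted p of 0.9995, and its lowest in the other edgeR fits was 0.625, without AAV-GFP replicate 3. Leaving out 1 library gave between 0 and 3 called genes in edgeR, none of them of the set: 1 (Trib3) without AAV-Trib3 replicate 4, 1 without AAV-GFP replicate 1 and 3 without AAV-GFP replicate 3. With library size alone, r of Krt8 with Krt18 was 0.81 (exact permutation, adjusted p = 0.0153). In the fits without 1 library r ran from 0.60 to 0.82 for Krt8 with Krt18, from 0.09 to 0.43 for Sox9 with Spp1 and from 0.33 to 0.78 for Spp1 with the macrophage markers; the cause was not tested. Medians of the list of NOTCH genes and of the list of injured hepatocytes stayed below 0 in every fit, and those of the other 5 lists changed sign in at least 1. The replicate block called 0 genes, and its log2 differences were 1.76 for Golm1 and 1.32 for Sox9; same-numbered libraries did not deviate together (r from -0.27 to -0.03). Depth limits Krt7, Krt19, Epcam and Cd24a most.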
